A study of Mus musculus with 53 samples.

Results

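The genes described here are 9 receptors through which feeding peptides act in the hypothalamus. They are the melanocortin receptors Mc3r and Mc4r, the neuropeptide Y (NPY) receptors Npy1r, Npy2r and Npy5r, and the receptors of ghrelin (Ghsr), melanin-concentrating hormone (Mchr1), orexin (Hcrtr2) and calcitonin or amylin (Calcr). They form a named list, with no threshold on a measured value, drawn up with earlier results of these data known, and were looked up by Ensembl identifier. All 9 were found among the 53379 genes of the deposited tables. RNA was sequenced from laser-captured paraventricular nucleus (PVN) and arcuate nucleus (ARC) of C57BL/6 mice that were wild type (Nnat+/+) or carried a null allele of the imprinted gene Nnat inherited from the father (Nnat+/-p). The paternal allele is the one expressed, and the null allele, in which a lacZ cassette replaces part of the gene, is not restricted to any cell type. Brains of the males were collected at 13 to 14 weeks of age, and the females are labelled as adult. Of 53 libraries 49 were used, in 13 groups.

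In chow-fed males the PVN gave 4 libraries of obese and 3 of non-obese Nnat+/-p mice and 3 of Nnat+/+ mice, and the ARC 4, 4 and 2 libraries of those groups. In chow-fed females the PVN gave 3 libraries of obese and 3 of non-obese Nnat+/-p mice and 4 of Nnat+/+ mice. Males on a 45% high fat diet (HFD) gave 6 Nnat+/+ and 3 Nnat+/-p libraries of the PVN, and 6 and 4 of the ARC. Following the study's methods, male Nnat+/-p mice on chow were non-obese below 35 g and obese above 37 g, and females below 25 g and above 30 g. The weight class is therefore a readout of the mice and not an assigned treatment. Nnat+/+ males weighed 31.4 to 33.5 g on chow and 37.4 to 43.9 g on HFD, so diet and body weight moved together. The labels do not name animals. Non-obese ARC replicates 39 and 40 share a weight of 34.3 g, as do female Nnat+/+ replicates 1 and 2 (24.1 g), so each pair may come from 1 mouse. They were counted as separate libraries, and p-values measure the spread between these libraries.

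In the hypothalamus, neurons of the ARC make the melanocortin agonist from Pomc and the antagonist AgRP together with NPY, and send them to the PVN. Melanocortin receptors there and elsewhere restrain feeding, and NPY acting at Y1 and Y5 receptors promotes it, while the Y2 receptor is known as the inhibitory autoreceptor of NPY neurons. Ghrelin, melanin-concentrating hormone and orexin favour feeding or arousal, and amylin and calcitonin reduce feeding. All 9 receptors couple to G proteins, and such receptor transcripts are typically scarce.

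The 49 libraries held 1479953 to 30228973 counts each, with 10087 to 16083 genes at 10 or more counts. Nnat itself lay at 224 to 584 CPM (counts scaled to the library total) in the Nnat+/+ libraries and at 0.268 to 13.7 CPM in the Nnat+/-p libraries, so each library fell on the side of its genotype label. The labelled nuclei were checked with marker genes. The 6 PVN neuron markers (Sim1, Otp, Avp, Oxt, Crh and Trh) summed to 31.4 to 2527 CPM in male PVN, 1594 to 5115 CPM in female PVN and 23.0 to 117 CPM in ARC. The 6 ARC neuron markers measured (Pomc, Agrp, Npy, Ghrh, Tac2 and Tbx3) summed to 22.9 to 623 CPM in ARC and 5.75 to 168 CPM in male PVN. Some libraries stood apart by these markers. Replicate 15 (chow-fed Nnat+/+ PVN) held only 31.4 CPM of PVN markers with 168 CPM of ARC markers, replicate 24 (HFD-fed Nnat+/+ PVN) held 169 CPM of PVN markers, and replicate 43 (chow-fed non-obese Nnat+/-p ARC) held 22.9 CPM of ARC markers. Female replicate 10 had 48.2% of its counts in 10 genes, the most of the females used, although many male libraries had more (up to 68.4%).

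The sequence around the start site is shown for the 3 receptors with the smallest adjusted p-values between the nuclei, described next. Each window runs from 250 bases before to 50 bases after the RefSeq start (GRCm38.p6), is written in the direction of transcription, and has every CG dinucleotide in capitals. Npy2r (chr3:82548036-82548335, minus strand) and Mc3r (chr2:172248242-172248541, plus strand) were lower in PVN. Calcr was higher in PVN and has 2 annotated starts, an upstream one (chr6:3764664-3764963, minus strand) and a downstream one (chr6:3763574-3763873, minus strand).
Npy2r: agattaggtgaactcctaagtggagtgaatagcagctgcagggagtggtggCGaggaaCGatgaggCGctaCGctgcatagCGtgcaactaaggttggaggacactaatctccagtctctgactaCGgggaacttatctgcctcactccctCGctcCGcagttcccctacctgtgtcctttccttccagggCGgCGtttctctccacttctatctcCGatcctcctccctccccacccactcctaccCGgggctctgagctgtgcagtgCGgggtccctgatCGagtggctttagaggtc
Mc3r: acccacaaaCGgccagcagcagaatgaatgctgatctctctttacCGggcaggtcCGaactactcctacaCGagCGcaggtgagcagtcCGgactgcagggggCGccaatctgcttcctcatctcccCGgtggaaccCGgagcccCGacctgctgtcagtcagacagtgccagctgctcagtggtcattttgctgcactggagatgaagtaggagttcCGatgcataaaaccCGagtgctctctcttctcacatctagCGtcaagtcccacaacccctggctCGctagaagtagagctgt
Calcr upstream start: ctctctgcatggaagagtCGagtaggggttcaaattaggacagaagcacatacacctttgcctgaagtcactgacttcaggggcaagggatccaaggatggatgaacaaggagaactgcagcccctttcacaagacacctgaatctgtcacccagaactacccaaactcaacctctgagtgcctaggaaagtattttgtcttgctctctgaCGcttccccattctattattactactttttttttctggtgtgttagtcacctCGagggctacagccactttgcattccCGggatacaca
Calcr downstream start: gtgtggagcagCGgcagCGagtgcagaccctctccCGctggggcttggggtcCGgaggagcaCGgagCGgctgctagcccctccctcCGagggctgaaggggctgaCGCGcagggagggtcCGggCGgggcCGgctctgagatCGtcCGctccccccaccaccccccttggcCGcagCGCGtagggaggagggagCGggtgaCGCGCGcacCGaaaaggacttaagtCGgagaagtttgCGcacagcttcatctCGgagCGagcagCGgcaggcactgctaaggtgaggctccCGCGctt
The downstream Calcr window held 29 CG dinucleotides and the upstream one 4, against a median of 7 over 32851 RefSeq promoters. The Npy2r and Mc3r windows held 14 each. The windows of Ghsr held 16, Npy5r 15, Npy1r 10, Hcrtr2 10 and Mchr1 8, and 43.47% of all promoters held 10 or more. TATAAA and TGACGTCA, searched on both strands, were in none of these windows, against 13.62% and 1.79% of all promoters. CCAAT was in the windows of Mc3r, Npy5r and Hcrtr2 (37.41% of all promoters), and GGGCGG, which contains a CG, in those of Npy2r and the downstream start of Calcr (35.66%). These letters describe the windows only. The counts were made per gene and do not say which Calcr start was used.

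The nuclei were compared first, in males, over both diets and genotypes. Calcr, Mc4r and Mchr1 were higher in PVN than in ARC, and Npy2r, Mc3r, Npy1r and Ghsr were lower. Fold changes are log2 values from edgeR's quasi-likelihood test with TMM scaling, p-values were adjusted by Benjamini-Hochberg over all genes tested, and a gene was called at an adjusted p below 0.25, the limit the study used. Of the 9 receptors 7 were called, 3 higher and 4 lower in PVN, and DESeq2 also called 7. Among all 21400 genes tested 34.4% were called, 20.5% as higher and 13.8% as lower. The median log2 fold change of the receptors was -0.46, beside 0.13 for all genes. Each nucleus is in a table of its own with its own pool code, so nucleus and pool cannot be told apart. In bulk tissue, fewer cells of a type and less RNA per cell cannot be told apart either.

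Scaling mattered for this comparison. Under TMM 59.8% of the called genes were higher in PVN, and with library totals alone 90.2% were, with the median of all genes moving from 0.13 to 0.46. Ghsr was no longer called with library totals (-0.10, adjusted p = 0.863) and Hcrtr2 turned from -0.22 to 0.13. Leaving out replicates 15 and 24, a choice made after seeing the data, also gave 7 called receptors. Labels do not name animals, so mice were inferred from equal weight and group, which matched 16 of them in both nuclei. A mouse in the block fits means such an inferred animal. With mouse as a block in the 33 matched libraries Npy5r was called as lower in PVN (-1.25, adjusted p = 0.0259) and Ghsr was not called (-0.51, adjusted p = 0.377).

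**Figure D1:**
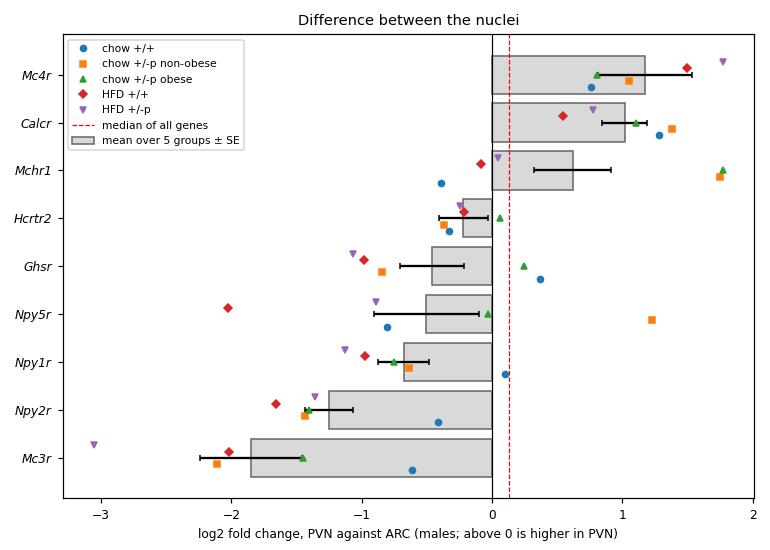
Difference between PVN and ARC of males for each receptor as a log2 fold change, where values above 0 are higher in PVN. Grey bars with error bars give the mean over the 5 groups with its SE, symbols give each group, and the dashed line marks the median of all genes at 0.13. All 5 symbols of Mc4r and Calcr lie above 0 and all 5 of Npy2r and Mc3r lie below.

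The 2 melanocortin receptors differed between the nuclei in opposite directions. Mc3r, found on ARC neurons among others and acting partly as an autoreceptor of the melanocortin system, lies on chromosome 2 (172248492-172251114, plus strand, GRCm38). In ARC its lowest, median and highest levels were 1.74, 5.95 and 11.8 CPM (n = 20), and in male PVN 0, 1.18 and 8.34 CPM (n = 19). The ARC median lay above most PVN values, although the ranges overlapped. The counts behind the PVN values were small, with 12 of 19 libraries under 10 counts and 3 at 0, where a count of 0 allows up to 0.450 to 0.670 CPM (3 counts of the library total). The log2 fold change was -1.85 (SE 0.394, edgeR adjusted p = 4.54e-04), it was negative in each of 5 groups (-3.05 to -0.61), and it was -2.03 without replicates 15 and 24.

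Within the ARC, Mc3r read 4.57 and 4.77 CPM in the 2 chow-fed Nnat+/+ libraries. Obese Nnat+/-p libraries read 5.24, 7.29, 9.22 and 9.93 CPM, and non-obese ones 1.74, 5.05, 8.18 and 8.78 CPM. The obese libraries all lay above the Nnat+/+ libraries, and the non-obese ones lay on both sides. With only 2 Nnat+/+ libraries groups separate easily, and how many of all genes do so was not counted. On HFD the Nnat+/+ libraries ran from 2.27 to 9.16 CPM with a median of 5.82, and the Nnat+/-p libraries read 3.98, 6.65, 7.05 and 11.8 CPM. In chow-fed male PVN the Nnat+/+ libraries (2.77, 3.13 and 6.10 CPM) overlapped the obese Nnat+/-p libraries (0, 0.397, 4.58 and 8.34 CPM) and the non-obese ones (0.539, 1.36 and 3.09 CPM). Female PVN held least, with 4 of 10 libraries at 0 and a highest value of 3.92 CPM. None of these differences was called.

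Mc4r, the receptor through which PVN neurons restrain feeding, lies on chromosome 18 (66857704-66860506, minus strand). Its lowest, median and highest levels were 0.179, 8.08 and 16.2 CPM in male PVN and 0.185, 2.28 and 6.14 CPM in ARC. The PVN library of 0.179 CPM was replicate 24, the library low in PVN markers, with 1 count. Between the nuclei its log2 fold change was 1.18 (SE 0.361, edgeR adjusted p = 0.0180), positive in each of 5 groups (0.76 to 1.77) and 1.29 without replicates 15 and 24. In female PVN the lowest, median and highest values were 1.24, 8.56 and 16.0 CPM.

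Mc4r differed little by genotype or diet against the spread within groups. In chow-fed male PVN it read 2.77, 4.70 and 8.50 CPM in Nnat+/+, 8.08, 11.0 and 13.2 CPM in non-obese Nnat+/-p, and 1.69, 4.31, 9.16 and 14.5 CPM in obese Nnat+/-p libraries. These groups overlapped. On HFD the PVN ran from 0.179 to 16.2 CPM in Nnat+/+ (median 6.83) and read 1.79, 4.50 and 13.5 CPM in Nnat+/-p. In the ARC 9 of 20 libraries had under 10 counts of Mc4r, so its values there rest on few reads.

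**Figure D2:**
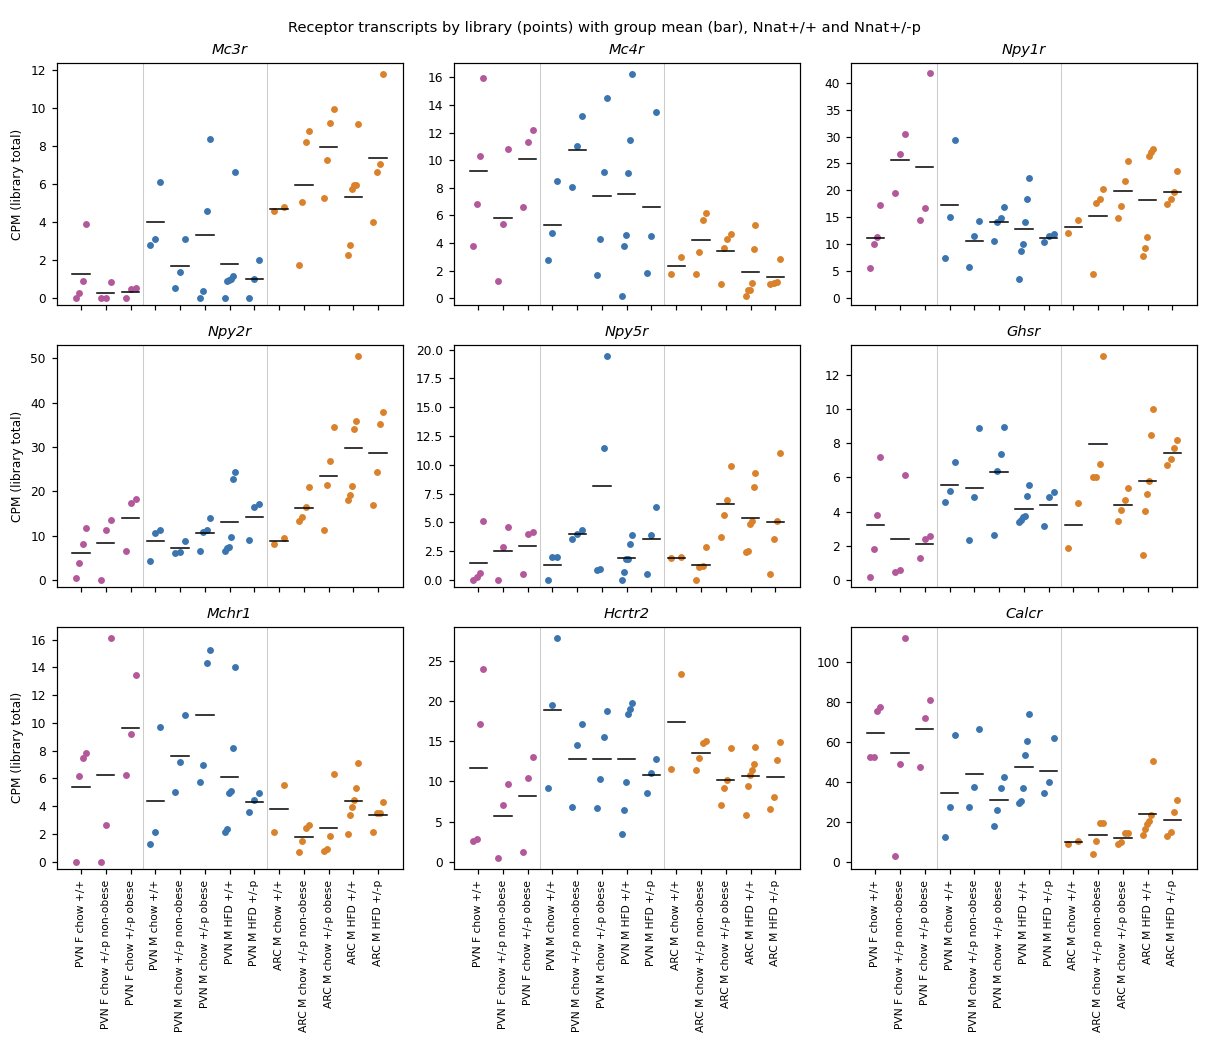
Level of each receptor in every library, in CPM on the library total, with one point per library and a bar at the group mean. Pink points are female PVN, blue points male PVN and orange points male ARC. Mc3r and Npy2r points stand highest in ARC and Calcr points highest in PVN, and most groups of one nucleus overlap each other.

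All 3 NPY receptors had their mean in males higher in ARC than in PVN, and Npy2r differed most. Npy2r, the Y2 receptor, lies on chromosome 3 (82538383-82548084, minus strand). In ARC its lowest, median and highest levels were 8.07, 21.1 and 50.5 CPM, and in male PVN 4.36, 9.70 and 24.4 CPM. The highest PVN value again came from replicate 24. Between the nuclei its log2 fold change was -1.25 (SE 0.185, edgeR adjusted p = 6.38e-07), negative in each of 5 groups (-1.66 to -0.41), and -1.37 without replicates 15 and 24.

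Npy1r, the Y1 receptor, lies on chromosome 8 (66697192-66706792, plus strand), and Npy5r, the Y5 receptor, lies 9063 bases away on the opposite strand (66679965-66688128, minus strand), so that their start sites face each other. Npy1r ran from 4.56 to 27.7 CPM in ARC (median 18.0) and from 3.58 to 29.3 CPM in male PVN (median 11.9). The PVN value of 29.3 CPM was that of replicate 15, and the next highest was 22.3 CPM. Its log2 fold change was -0.68 (SE 0.196, edgeR adjusted p = 0.0116), negative in 4 of 5 groups, and -0.79 without replicates 15 and 24. In chow-fed Nnat+/+ mice, the group that holds replicate 15, it was 0.10.

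Npy5r was scarcer and far more variable between libraries. It ran from 0 to 11.0 CPM in ARC (median 3.63) and from 0 to 19.4 CPM in male PVN (median 1.96), and 7 of 20 and 8 of 19 libraries had under 10 counts. Its log2 fold change between the nuclei was -0.50 (SE 0.403, edgeR adjusted p = 0.453) and was negative in 4 of 5 groups. Apart from the fit with mouse as a block given above, no setting called it.

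Calcr had the highest level per length of the 9 receptors in PVN, as given further on. It lies on chromosome 6 (3685680-3764714, minus strand) and encodes the calcitonin receptor, which forms amylin receptors together with the accessory proteins made from the Ramp genes. Its lowest, median and highest levels were 12.4, 36.9 and 73.9 CPM in male PVN and 4.05, 14.7 and 50.2 CPM in ARC. The lowest PVN value was that of replicate 15, and the ARC value of 50.2 CPM stood far above the next, 30.7 CPM. Between the nuclei its log2 fold change was 1.02 (SE 0.172, edgeR adjusted p = 1.02e-05), positive in each of 5 groups (0.54 to 1.38) and 1.12 without replicates 15 and 24. In female PVN it ran from 2.98 to 112 CPM with a median of 62.0, and the lowest value was that of replicate 10.

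Mchr1, Ghsr and Hcrtr2 differed less between the nuclei. Mchr1, the receptor of melanin-concentrating hormone (chromosome 15, 81235499-81238964, plus strand), ran from 1.30 to 15.3 CPM in male PVN (median 5.07) and from 0.676 to 7.11 CPM in ARC (median 3.01). Its log2 fold change was 0.62 (SE 0.294, edgeR adjusted p = 0.150). The call was lost without replicate 13 (0.41, adjusted p = 0.409) or without replicate 33 (0.51, adjusted p = 0.380), and the difference was positive in 3 of 5 groups. In the 2 groups of chow-fed Nnat+/-p mice it was 1.77 (obese) and 1.75 (non-obese), and in the remaining groups it lay between -0.39 and 0.04.

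Ghsr, the ghrelin receptor (chromosome 3, 27371351-27378010, plus strand), ran from 1.48 to 13.1 CPM in ARC (median 5.88) and from 2.33 to 8.92 CPM in male PVN (median 4.85). Its log2 fold change of -0.46 (SE 0.245, edgeR adjusted p = 0.211) lay close to the limit, was negative in 3 of 5 groups (-1.07 to 0.37), was called in 4 of 8 alternative settings and was lost when any 1 of 12 libraries was left out (replicate 13, 14, 19, 21, 22, 29, 34, 38, 45, 46, 49 or 50, adjusted p up to 0.717). Hcrtr2, the orexin receptor type 2 (chromosome 9, 76225880-76323856, minus strand), ran from 3.51 to 27.9 CPM in male PVN (median 12.8) and from 5.85 to 23.3 CPM in ARC (median 11.5). Its log2 fold change was -0.22 (SE 0.186, edgeR adjusted p = 0.489). Hcrtr2 overlaps the gene Gm27234 on the other strand, and Calcr hosts Mir653 and Mir489, but in each case the exons do not overlap.

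Levels can be set between genes only per length of exon. In male PVN the order was Calcr (10.5 ± 4.47 CPM per kb, SD, n = 19), Npy1r (3.82 ± 1.71), Npy2r (3.29 ± 1.65), Mchr1 (3.08 ± 1.95), Mc4r (2.68 ± 1.72), Hcrtr2 (2.19 ± 1.01), Npy5r (1.46 ± 1.83), Ghsr (1.14 ± 0.432) and Mc3r (0.883 ± 0.935). Calcr stood apart, and each other receptor differed from its neighbour in the order by less than the SD. In ARC the order was Npy2r (6.95 ± 3.32 CPM per kb, SD, n = 20), Npy1r (5.15 ± 1.90), Calcr (4.43 ± 2.56), Mc3r (2.40 ± 1.01), Hcrtr2 (1.91 ± 0.636), Npy5r (1.72 ± 1.27), Mchr1 (1.47 ± 0.844), Ghsr (1.36 ± 0.610) and Mc4r (0.939 ± 0.665). No neighbours in ARC lay further apart than the larger of their SDs. Mc4r, the fifth of the receptors in male PVN, was the last in ARC, and Mc3r, the last in male PVN, was the fourth in ARC.

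**Figure D3:**
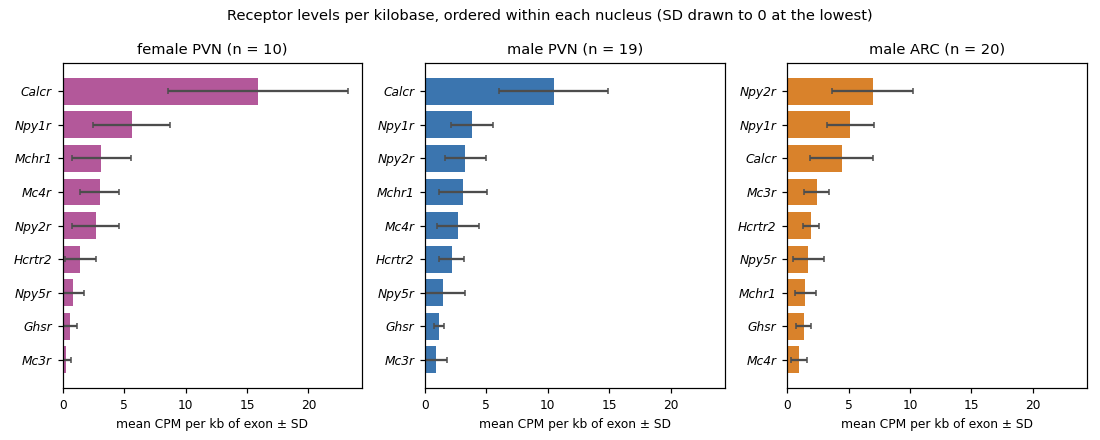
Mean level of each receptor in CPM per kb of exon, ordered within female PVN, male PVN and male ARC, with bars for the mean and error bars for the SD over libraries (drawn to 0 where they would pass below). Calcr leads in PVN of both sexes at 15.9 and 10.5 CPM per kb, and Npy2r leads in ARC at 6.95.

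In female PVN the order again began with Calcr (15.9 ± 7.35 CPM per kb, SD, n = 10) and Npy1r (5.61 ± 3.14) and ended with Ghsr (0.597 ± 0.543) and Mc3r (0.265 ± 0.452). Between them stood Mchr1 (3.16 ± 2.40), Mc4r (3.01 ± 1.58), Npy2r (2.69 ± 1.91), Hcrtr2 (1.43 ± 1.24) and Npy5r (0.869 ± 0.833). Female and male libraries are in separate tables with separate pool codes, so sex and pool cannot be told apart and no test was made between them.

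Among the peptides that act on these receptors, Pomc and Npy differed more between the nuclei than any of the receptors did. Of 10 ligand genes listed 6 could be tested, and 5 were lower in PVN and none higher, among them Pomc (-3.98, SE 0.358, edgeR adjusted p = 8.42e-13) and Npy (-3.09, SE 0.390, adjusted p = 1.49e-08). Pomc and Npy are themselves ARC neuron markers, so their difference is no separate result about ligands. Agrp, Pmch and Hcrt, which encode other peptides of these receptors, are also on the marker lists of the ARC or lateral hypothalamus. Of 5 receptor accessory proteins 4 were tested and 3 were higher in PVN, including Mrap2, which modulates melanocortin receptors (0.44, SE 0.151, adjusted p = 0.0353), and Ramp3, a partner of Calcr (1.44, SE 0.669, adjusted p = 0.141).

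On a list of 7 other receptors related to these, 6 were tested. Only Calcrl was called, as higher in PVN (0.50, SE 0.237, edgeR adjusted p = 0.149). Of 16 other receptors of appetite and energy balance 15 were tested, with 4 higher and 4 lower in PVN. Cckar, a cholecystokinin receptor (2.03, SE 0.408, adjusted p = 2.03e-04), and Glp1r, the receptor of GLP-1 (1.15, SE 0.293, adjusted p = 0.00391), were higher. Htr1b, a serotonin receptor (-1.85, SE 0.279, adjusted p = 1.03e-06), and Lepr, the leptin receptor (-1.58, SE 0.421, adjusted p = 0.00581), were lower. Marker lists of other cells moved as well. Higher in PVN were 4 of 4 endothelial markers, beside 20.5% of all genes. Lower, beside 13.8% of all genes, were 4 of 4 oligodendrocyte, 4 of 4 astrocyte, 3 of 4 pan-neuronal, 2 of 4 microglial and 3 of 3 ventromedial hypothalamus (VMH) markers. Median summed CPM in male PVN and ARC was 25.6 and 76.4 for forebrain excitatory and 1.35 and 19.4 for lateral hypothalamus markers. It was 4.25 and 3.87 for ependymal and tanycyte and 754 and 793 for pan-neuronal markers. Their part in the receptor differences was not tested.

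The second question was what HFD does in Nnat+/+ males. In the ARC Npy2r was higher on HFD, and Calcr came next without being called. Of the 9 receptors 1 was called (higher), beside 1.16% of the 15753 genes tested. DESeq2 called 2, Npy2r and Calcr. At an unadjusted p under 0.05 there were also 2 receptors, beside 8.54% of all genes. The median log2 fold change of the receptors was 0.60, beside 0.02 for all genes.

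Npy2r read 8.07 and 9.54 CPM (30 and 38 counts) in the 2 chow-fed Nnat+/+ ARC libraries. On HFD it read 18.1, 19.2, 21.2, 34.1, 35.9 and 50.5 CPM. All 6 HFD libraries lay above both chow libraries, and the lowest of them was already above 18 CPM. The log2 fold change was 1.91 (SE 0.440, edgeR adjusted p = 0.109). It stayed between 1.77 and 2.07 when each library was left out, but with only 2 chow libraries the call was lost without replicate 33 (adjusted p = 0.755) or replicate 34 (adjusted p = 0.531).

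Calcr read 9.04 and 10.5 CPM on chow and 13.2, 16.4, 18.8, 20.5, 23.2 and 50.2 CPM on HFD in the same libraries. The groups did not overlap, and the HFD group held 1 library far above the rest. The log2 fold change was 1.40 (SE 0.473, edgeR unadjusted p = 0.00580, adjusted p = 0.301). It was 1.14 without that library, and 5 of 8 alternative settings called it. Npy5r also did not overlap, with 1.88 and 2.01 CPM on chow (7 and 8 counts) and 2.41 to 9.27 CPM on HFD (9 to 88 counts), and it was not called. With only 2 chow libraries groups separate easily, and the share of all genes without overlap was not counted. The remaining receptors overlapped between the diets. Ghsr read 1.88 and 4.52 CPM on chow and 1.48 to 9.99 CPM on HFD, Npy1r 12.1 and 14.5 CPM against 7.80 to 27.7 CPM, Hcrtr2 11.6 and 23.3 CPM against 5.85 to 14.3 CPM, and Mchr1 2.15 and 5.52 CPM against 2.04 to 7.11 CPM.

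Markers of the tissue moved with the diet in these libraries. The ARC neuron markers summed to 47.9 and 53.5 CPM on chow and to 80.7 to 623 CPM on HFD, with no marker at 0 in either group. Of the 6 tested 5 were higher at an unadjusted p under 0.05 and 1, Tbx3, was called. The library with 623 CPM of ARC markers was also the one with 50.5 CPM of Npy2r and 50.2 CPM of Calcr. Markers of the neighbouring VMH and lateral hypothalamus went the other way. The 3 VMH markers summed to 50.0 and 87.9 CPM on chow and to 3.33 to 30.7 CPM on HFD, with 1 called lower. The 2 lateral hypothalamus markers summed to 30.9 and 99.8 CPM on chow and to 0.278 to 29.4 CPM on HFD. The 4 oligodendrocyte markers summed to 676 and 795 CPM on chow and 159 to 583 CPM on HFD, with 3 called lower. The 4 pan-neuronal markers were also lower, at 859.0 and 863.9 CPM on chow and 322.5 to 811.5 CPM on HFD. The 6 PVN neuron markers were higher on HFD, at 28.36 and 33.09 CPM on chow and 35.55 to 89.35 CPM on HFD. Forebrain excitatory neuron markers overlapped (74.52 and 152.6 CPM on chow, 9.272 to 83.77 CPM on HFD), as did astrocyte, microglial and endothelial markers. The part of these marker differences in the receptor results was not tested.

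**Figure D4:**
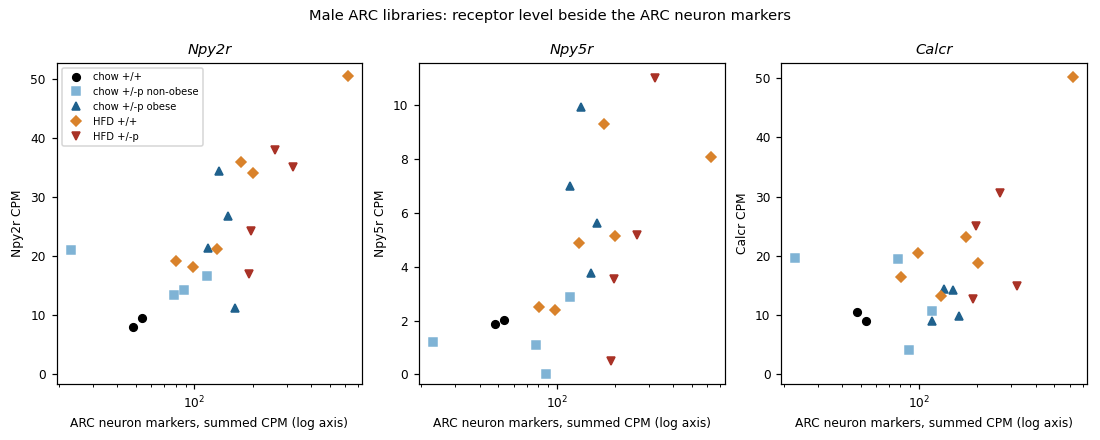
Level of Npy2r, Npy5r and Calcr in CPM against the summed CPM of the 6 ARC neuron markers (log axis) in the 20 male ARC libraries, by group. The 2 chow-fed Nnat+/+ libraries sit at about 50 CPM of markers with 8.07 and 9.54 CPM of Npy2r, and the HFD library with 623 CPM of markers has the highest Npy2r and Calcr.

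The ligands and the other receptors on the lists gave no call in this ARC comparison. Of 5 ligand genes tested 3 were higher and 1 was lower at an unadjusted p under 0.05. None of 3 accessory proteins and 3 other related receptors passed that limit, and of 15 other appetite receptors 2 were higher and 1 was lower.

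In the PVN no receptor was called for HFD against chow in Nnat+/+ males. By edgeR 0 of 9 passed the limit beside 1.43% of 17576 genes, 0 of 9 had an unadjusted p under 0.05 beside 10.3% of all genes, and DESeq2 called 0. Without replicate 13 edgeR called 1, Calcr. Calcr read 12.4, 27.2 and 63.6 CPM on chow and 29.2, 30.6, 36.9, 53.4, 60.6 and 73.9 CPM on HFD. The ranges overlapped because of the chow library of 63.6 CPM, and the lowest chow value was that of replicate 15. Npy2r read 4.36, 10.6 and 11.3 CPM on chow and 6.54 to 24.4 CPM on HFD, and Hcrtr2 9.15, 19.6 and 27.9 CPM against 3.51 to 19.8 CPM. The receptors' median log2 fold change was 0.43, beside -0.03 for all genes. Leaving out replicates 15 and 24 also gave 0 calls.

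Among the other genes of the pathway in that PVN comparison, 1 of 3 ligand genes tested (Pomc) and 1 of 15 other appetite receptors (Glp1r) were called, and both were named after their values were seen. Glp1r was higher on HFD, at 3.58 to 16.0 CPM against 0.218 to 1.96 CPM (2.88, SE 0.539, edgeR adjusted p = 0.00898), and its log2 fold change lay between 2.41 and 3.56 when each library was left out. Pomc was lower on HFD (-4.18, SE 0.799, edgeR adjusted p = 0.0109), but its chow group ran from 0.940 to 98.4 CPM with the highest value in replicate 15, the library rich in ARC markers. Without replicate 15 its log2 fold change was -0.28 (adjusted p = 0.927).

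Markers of other regions moved with the diet in the PVN. The 4 forebrain excitatory neuron markers summed to 36.7, 95.0 and 230 CPM on chow and to 3.76 to 29.8 CPM on HFD, with up to 2 markers at 0 in either group, and 2 of 3 tested were called lower. The 3 VMH markers summed to 11.6, 14.7 and 111 CPM on chow, none at 0, and to 1.75 to 9.49 CPM on HFD, with 2 of 3 called lower. All 3 chow libraries, not only replicate 15, lay above all 6 HFD libraries for both lists. The 6 PVN neuron markers overlapped and none was called. The part of these differences in the values of the receptors and of Glp1r was not tested.

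The third question was whether the loss of Nnat, with or without obesity, changes these receptors on chow. In the ARC no receptor was called. For obese Nnat+/-p against Nnat+/+ mice edgeR called 0 of 9, beside 0.0205% of 14658 genes, DESeq2 called 0, and 1 receptor, Npy2r, had an unadjusted p under 0.05, beside 2.59% of all genes. For non-obese Nnat+/-p against Nnat+/+ mice it called 0, beside 0.0136%, with 0 by DESeq2 and 0 at an unadjusted p under 0.05, beside 1.9%. For obese against non-obese Nnat+/-p mice it called 0, beside 0.00682%, with 0 by DESeq2, and 1 receptor, Npy5r, had an unadjusted p under 0.05, beside 4.25%. The receptors' median log2 fold changes in these comparisons were 0.48, 0.10 and 0.51, beside 0.02, 0.03 and -0.01 for all genes.

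Npy2r read 11.2, 21.4, 26.8 and 34.5 CPM in obese Nnat+/-p ARC and 13.4, 14.2, 16.6 and 21.1 CPM in non-obese Nnat+/-p ARC. Both groups lay above the 2 Nnat+/+ libraries (8.07 and 9.54 CPM), and they overlapped each other. For obese Nnat+/-p against Nnat+/+ the log2 fold change was 1.37 (SE 0.444, edgeR unadjusted p = 0.00501, adjusted p = 1). The 2 chow-fed Nnat+/+ libraries are the same as in the comparison of diets, so these results share their controls. Every obese library also lay above both for Mc3r, Npy1r and Npy5r, and every non-obese one for Ghsr. With so few Nnat+/+ libraries groups separate easily, and how many of all genes do so was not counted.

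Npy5r read 3.75, 5.61, 6.97 and 9.93 CPM (25 to 49 counts) in obese and 0, 1.10, 1.21 and 2.86 CPM (0 to 14 counts) in non-obese Nnat+/-p ARC. All 4 obese libraries lay above all 4 non-obese ones, with the Nnat+/+ libraries at 1.88 and 2.01 CPM. How many of all genes separate in this way was not counted, so this is a description only. The library at 0 was the shallowest, and a count of 0 allows up to 2.03 CPM there. The log2 fold change was 2.31 (SE 0.761, edgeR unadjusted p = 0.00570, adjusted p = 0.999), and it lay between 2.02 and 2.92 when each library was left out. Ghsr went the other way, at 3.45, 4.11, 4.66 and 5.40 CPM in obese and 5.99, 6.04, 6.76 and 13.1 CPM in non-obese libraries without overlap, and had an unadjusted p above 0.05.

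The remaining receptors overlapped between obese and non-obese ARC. Npy1r read 15.0, 17.1, 21.8 and 25.5 CPM in obese and 4.56, 17.6, 18.5 and 20.3 CPM in non-obese libraries, where 4.56 CPM was the library low in ARC markers. Calcr read 8.99, 9.90, 14.2 and 14.4 CPM in obese and 4.05, 10.6, 19.6 and 19.6 CPM in non-obese libraries. Hcrtr2 read 7.04 to 14.2 CPM in obese, 11.5 to 15.0 CPM in non-obese and 11.6 and 23.3 CPM in Nnat+/+ libraries. Mchr1 held few counts here, with 4 to 42 in obese and 1 to 17 in non-obese libraries.

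Here too the markers moved with the groups. The ARC neuron markers summed to 117 to 161 CPM in obese Nnat+/-p, 22.9 to 116 CPM in non-obese Nnat+/-p and 47.9 and 53.5 CPM in Nnat+/+ libraries. Against Nnat+/+ 2 of 6 were higher in obese mice at an unadjusted p under 0.05 and 0 were called. The 4 astrocyte markers summed to 403 to 550 CPM in obese, 223 to 522 CPM in non-obese and 226 and 255 CPM in Nnat+/+ libraries, with 1 called higher in obese than in Nnat+/+ mice. The 2 lateral hypothalamus markers summed to 4.95 to 21.5 CPM in obese, 22.5 to 183 CPM in non-obese and 30.9 and 99.8 CPM in Nnat+/+ libraries. The part of these markers in the Npy2r, Npy5r and other receptor values was not tested. The 1 gene called between obese and non-obese ARC was Pmch, which encodes the ligand of Mchr1 and is a marker of the lateral hypothalamus (-2.82, SE 0.527, edgeR adjusted p = 0.245). It ran from 3.37 to 21.5 CPM in obese and from 22.5 to 171 CPM in non-obese libraries, and it was named after its values were seen. The call was lost when replicate 36, 39, 41, 42 or 43 was left out (adjusted p = 0.397 to 0.999), and without replicate 43, the library low in ARC markers, the log2 fold change was -1.83.

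In chow-fed male PVN no receptor was called either, nor had any an unadjusted p under 0.05. For obese Nnat+/-p against Nnat+/+ mice edgeR called 0 of 9, beside 0.0256% of 15618 genes, and DESeq2 called 0, with 3.52% of all genes at an unadjusted p under 0.05. For non-obese Nnat+/-p against Nnat+/+ mice it called 0, beside 0.0128%, and DESeq2 0, with 2.56% of all genes at an unadjusted p under 0.05. For obese against non-obese mice it called 0, beside 0%, and DESeq2 0, with 1.66% of all genes at an unadjusted p under 0.05. Leaving out replicate 15 gave 0 calls in each of the comparisons with Nnat+/+.

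Npy5r had the widest spread in that tissue. It read 0.863, 0.964, 11.5 and 19.4 CPM (3, 4, 58 and 87 counts) in obese Nnat+/-p, 3.59, 3.97 and 4.32 CPM in non-obese Nnat+/-p and 0, 1.96 and 1.96 CPM in Nnat+/+ PVN. A pair of the obese libraries lay above all others and the other pair below the non-obese libraries, so the weight class did not order them. Mchr1 read 5.75, 6.99, 14.3 and 15.3 CPM in obese, 5.00, 7.18 and 10.6 CPM in non-obese and 1.30, 2.18 and 9.71 CPM in Nnat+/+ libraries, with the Nnat+/+ library of 9.71 CPM inside the range of the others. The receptors' median log2 fold changes were 0.29 for obese and -0.07 for non-obese mice against Nnat+/+, beside -0.01 for all genes in both.

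The other receptors of this tissue overlapped in each pair of groups. Calcr read 18.1, 26.0, 36.9 and 42.5 CPM in obese, 27.3, 37.2 and 66.6 CPM in non-obese and 12.4, 27.2 and 63.6 CPM in Nnat+/+ libraries. Npy1r read 10.5 to 17.0 CPM in obese, 5.73 to 14.3 CPM in non-obese and 7.52 to 29.3 CPM in Nnat+/+ libraries. Ghsr, Hcrtr2 and Npy2r were similarly mixed, at 2.65 to 8.92, 6.74 to 18.8 and 6.61 to 14.1 CPM in obese libraries and 4.58 to 6.89, 9.15 to 27.9 and 4.36 to 11.3 CPM in Nnat+/+ libraries. By contrast Glp1r, on the list of other appetite receptors, was called in obese against Nnat+/+ PVN (3.92, SE 0.678, edgeR adjusted p = 0.0407). It ran from 12.9 to 29.5 CPM against 0.218 to 1.96 CPM, kept its call when each library was left out (3.42 to 4.58), and was named after its values were seen. The 3 Nnat+/+ libraries are those of the Glp1r result for diet, so both results share their controls. No gene was called between obese and non-obese PVN, so the Glp1r call is not shown to go with obesity. Forebrain excitatory neuron markers summed to 36.7 to 230 CPM in Nnat+/+ and 16.8 to 30.4 CPM in obese libraries, with 1 of 3 tested called lower. Non-obese libraries also lay below Nnat+/+, at 7.9 to 33.95 CPM. The VMH markers overlapped between obese and Nnat+/+ libraries (3.80 to 14.4 CPM against 11.6 to 111 CPM). Their part in the values was not tested.

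In chow-fed female PVN no receptor was called and none had an unadjusted p under 0.05. For obese Nnat+/-p against Nnat+/+ mice edgeR called 0 of 9, beside 0.0129% of 15485 genes, and DESeq2 called 0, with 3.18% of all genes at an unadjusted p under 0.05. For non-obese Nnat+/-p against Nnat+/+ mice it called 0, beside 0.00646%, and DESeq2 0, with 4% at an unadjusted p under 0.05. For obese against non-obese mice it called 0, beside 0%, and DESeq2 0, with 3.06% at an unadjusted p under 0.05. Female replicate 10, the female library with the most counts in a few genes, had 0 counts of Mc3r, Npy2r, Npy5r and Mchr1 and only 2.98 CPM of Calcr, where a count of 0 allows up to 0.448 CPM.

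Npy1r was the receptor of females whose groups stood furthest apart. It read 5.60, 10.1, 11.3 and 17.3 CPM in Nnat+/+, 19.4, 26.7 and 30.5 CPM in non-obese and 14.5, 16.7 and 41.7 CPM in obese Nnat+/-p PVN. All 3 non-obese libraries lay above the Nnat+/+ libraries, and the obese ones overlapped them. How many of all genes separate in this way was not counted. Npy2r read 0.482, 3.80, 8.12 and 11.8 CPM in Nnat+/+, 0, 11.3 and 13.6 CPM in non-obese and 6.57, 17.3 and 18.2 CPM in obese libraries, with overlap throughout. Calcr read 52.3, 52.4, 75.6 and 77.4 CPM in Nnat+/+, 2.98, 48.8 and 112 CPM in non-obese and 47.3, 71.7 and 80.9 CPM in obese libraries. Mc4r lay at 3.80 to 16.0, 1.24 to 10.8 and 6.63 to 12.2 CPM in the same groups. Hcrtr2 read 2.57, 2.80, 17.1 and 24.0 CPM in Nnat+/+, 0.448, 7.02 and 9.73 CPM in non-obese and 1.18, 10.4 and 13.0 CPM in obese libraries, with overlap throughout. Mchr1 ran from 0 to 7.84, 0 to 16.1 and 6.29 to 13.4 CPM, and Ghsr from 0.161 to 7.21, 0.482 to 6.15 and 1.27 to 2.57 CPM. Npy5r was at or under 0.616 CPM in 3 of 4 Nnat+/+ libraries and at 5.10 CPM in the fourth, with 0, 2.89 and 4.60 CPM in non-obese and 0.544, 4.03 and 4.19 CPM in obese libraries.

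The last question was whether genotype changes the receptors on HFD. In the PVN edgeR called 0 of 9, beside 0.00569% of 17576 genes, DESeq2 called 0, and 0 had an unadjusted p under 0.05, beside 0.99% of all genes. In the ARC edgeR called 0 of 9, beside 0.0127% of 15753 genes, DESeq2 called 0, and 0 had an unadjusted p under 0.05, beside 4.54%. The receptors' median log2 fold changes were -0.11 and -0.17, beside -0.05 and -0.02 for all genes. In the ARC Npy2r read 17.0, 24.3, 35.1 and 38.0 CPM in Nnat+/-p, within the 18.1 to 50.5 CPM of Nnat+/+ but for the lowest, and Calcr 12.8, 15.0, 25.0 and 30.7 CPM against 13.2 to 50.2 CPM. In the PVN Npy1r read 10.4, 11.5 and 11.9 CPM in Nnat+/-p against 3.58 to 22.3 CPM in Nnat+/+, and Calcr 34.3, 39.9 and 61.8 CPM against 29.2 to 73.9 CPM. The 3 Nnat+/-p libraries thus lay inside the range of the 6 Nnat+/+ libraries for both. Npy2r read 8.94, 16.5 and 17.3 CPM against 6.54 to 24.4 CPM, Mchr1 3.57, 4.45 and 4.95 CPM against 2.15 to 14.0 CPM, and Hcrtr2 8.55, 11.1 and 12.8 CPM against 3.51 to 19.8 CPM, again inside. In the ARC Npy5r read 0.504, 3.52, 5.15 and 11.0 CPM in Nnat+/-p against 2.41 to 9.27 CPM, Ghsr 6.73, 7.05, 7.73 and 8.19 CPM against 1.48 to 9.99 CPM, and Npy1r 17.4, 18.5, 19.7 and 23.6 CPM against 7.80 to 27.7 CPM. Mchr1 (2.11 to 4.29 CPM against 2.04 to 7.11 CPM) and Hcrtr2 (6.55 to 15.0 CPM against 5.85 to 14.3 CPM) overlapped as well.

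Whether a difference depended on the nucleus was tested as an interaction in a fit of all male libraries. For obesity (obese Nnat+/-p against Nnat+/+ on chow, PVN minus ARC) edgeR called 0 of 9, beside 0% of 21400 genes, DESeq2 called 0, and 1 receptor had an unadjusted p under 0.05, beside 6.96% of all genes. That was Mchr1 (2.17, SE 1.00, adjusted p = 0.709), whose obese libraries were higher than Nnat+/+ on average in PVN (10.6 against 4.40 CPM) and lower in ARC (2.47 against 3.84 CPM). For diet in Nnat+/+ mice it called 0 of 9, beside 0.0187%, DESeq2 0, and 1 receptor had an unadjusted p under 0.05, beside 5.62%. That was Npy2r (-1.24, SE 0.603, adjusted p = 0.860), with means of 8.80 and 29.8 CPM on chow and HFD in ARC and of 8.74 and 13.0 CPM in PVN. For genotype on HFD it called 0, beside 0%, DESeq2 0, and 0 had an unadjusted p under 0.05, beside 2.83%. With mouse as a block the genes called were 101, 234 and 10 for these interactions, with no receptor among them. The higher Npy2r on HFD in the ARC is therefore not shown to differ from the PVN.

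Finally, the genes whose level followed each receptor most closely were listed by Pearson's r of log2 CPM, over the male libraries of the nucleus with the higher mean CPM. For Hcrtr2 that was the PVN, although its TMM-scaled fold change was below 0 there. These are descriptions over libraries that share a pool, a dissection and a depth scale. In the 20 ARC libraries Npy2r went with Ecel1 (0.91), Sv2c (0.871) and Vwc2l (0.862), Npy1r with Six6 (0.838), Pomc (0.806) and 1700086L19Rik (0.80), Npy5r with Esr1 (0.838), Gtf2h2 (0.83) and Vgll3 (0.823), and Mc3r with Csf1 (0.826), Socs3 and Ccdc187 (both 0.746). Ghsr reached at most 0.747, with Cyp1b1. In the 19 male PVN libraries Calcr went with P4hb (0.859), Fndc3a (0.857) and Plxnc1 (0.855), Mchr1 with Slc16a6 (0.785), Plxnd1 (0.768) and Ephb4 (0.762), Mc4r with Mrps12 (0.774), Gpc5 (0.765) and Fign (0.758), and Hcrtr2 with Ltbp4 (0.74).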

How the data were processed

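RNA from PVN and ARC captured by laser from cresyl violet stained sections was made into libraries with the SMARTer Stranded Total RNA-Seq v2 Pico kit and read as single-end reads. The authors deposited raw counts per gene in 3 tables (female PVN, male PVN, male ARC) with no normalization. The submitters' processing notes name STAR 2.5.0a and GRCm38; the counting tool, annotation release and strand setting are not given in the sources used here. The members and gene lists were chosen with earlier results of these data known.

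Replicates 5, 7 and 35 (2302 to 812815 counts, few of them from the receptors) and replicate 32, whose label names the ARC and whose table is of the PVN, were left out. Levels are CPM on the library total, and log2 fold changes came from edgeR 4.0.16 in R 4.3.3: glmQLFit and glmQLFTest, TMM factors, filterByExpr with a minimum count of 10, Benjamini-Hochberg adjustment over all genes tested, called at an adjusted p below 0.25. Chow groups were fitted within each table, diet and HFD groups over all males of a nucleus, and nuclei and interactions over all males. The SE was taken as the size of the log2 fold change divided by the square root of F. Alternatives were DESeq2 1.42.0, other scalings, filters, limits and sets of libraries, each replicate left out, and, chosen after seeing the data, replicates 15 and 24 left out. The scripts were tested on simulated data for some of the comparisons. Changes were placed only in better expressed genes, so recovery for the scarcest receptors was not tested. Floors cover counting error only. Groups without overlap are described for the receptors alone, and the share of all genes without overlap was not counted. Statistics are printed for a receptor where it was called or had an unadjusted p below 0.05, and for all 9 between the nuclei; from other lists the 2 genes per direction with the smallest p may be named, and likeness names the top 3 genes. The authors' deposited counts limit the scarce receptors most, with 1 to 10 counts in many libraries. Sequences are from RefSeq, gene positions from GENCODE on GRCm38.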

Additional observations from a re-analysis of the deposited data

Results flagged for a closer look

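In groups of 4 to 10 libraries, 63 pairs of receptor and group were examined for 1 library far from the others, and 6 were found. The rule flags about 1 in 20 for normally distributed values. Levels of scarce receptors are bounded at 0 and the pairs share libraries, so the 6 cannot be set against that rate. Calcr was 50.2 CPM in replicate 46 (ARC, HFD-fed Nnat+/+), against 13.2 to 23.2 CPM in the others of its group. This library also had the highest summed CPM of ARC neuron markers (623 CPM). Npy1r was 4.56 CPM in replicate 43 (ARC, non-obese Nnat+/-p), against 17.6 to 20.3 CPM, and this library had the lowest such sum in ARC (22.9 CPM). Ghsr was 13.1 CPM in replicate 38 of the same group, against 5.99 to 6.76 CPM. Mc3r was 6.63 CPM in replicate 24 (PVN, HFD-fed Nnat+/+), against 0 to 1.18 CPM, and this library was low in PVN neuron markers (169 CPM). Mc4r was 2.81 CPM in replicate 50 (ARC, HFD-fed Nnat+/-p), against 1.06 to 1.18 CPM, with 12 counts against 3 to 7. Npy5r was 5.10 CPM in replicate 1 (female PVN, Nnat+/+), against 0 to 0.616 CPM.

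In the libraries left out of every comparison, Npy5r was 4.49 CPM (33 counts) in replicate 32, above the highest chow-fed Nnat+/+ male PVN library (1.96 CPM). Mchr1 was 18.4 CPM in replicate 35, on 5 counts of 271324, above the highest chow-fed Nnat+/+ ARC library (5.52 CPM).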

How the results depend on the processing

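In most comparisons no receptor was called in the main fit, and there a kept count means 0 that stayed 0. The number of receptors called kept to within 1.5 times in 131 of 137 counts under alternative settings. It did so in 248 of 252 counts made with a library left out. The exceptions were in 2 comparisons. For HFD against chow in Nnat+/+ ARC, 1 receptor was called, against 0 at an adjusted p below 0.05 and 2 without the filter on low counts (every gene above 1 count in total), DESeq2, all labelled libraries, only the 2 groups, or replicates 39 and 40 (of 1 labelled weight) summed; leaving out a library gave 0 (without replicate 33 or 34) to 2 (without replicate 45). For the same diets in PVN the count was 0 to 1 (1 without replicate 13). Between the nuclei it was 5 to 7. The cause was not tested. Hcrtr2 between the nuclei turned from -0.22 to 0.13 with library totals alone. Of 578 values of single receptors 550 stayed on the same side of the limit, called or not called. A call was lost in 20 and gained in 7, and 1 reversed its sign. These values belong to 15 receptor results, some of which were not called in the main fit.

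No paired analysis by replicate number was possible because the numbers run from 1 to 53 without repeat. With mouse as a block the receptors called between the nuclei stayed at 7, and the genes called were 5615 rather than 7355, with 101 rather than 0 for nucleus by obesity, 234 rather than 4 for nucleus by diet and 10 rather than 0 for nucleus by genotype on HFD. The weights 42.9 and 43.9 g carry different genotypes in the 2 nuclei, and without those libraries the genes called for diet in ARC fell from 182 to 44.

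Counts of genes called over alternatives, and over left-out libraries, ran as follows. Male PVN on chow gave 4 (2 to 43, 2 to 21), 2 (1 to 18, 1 to 9) and 0 (0 to 6, 0) for obese and non-obese against Nnat+/+ and obese against non-obese. Female PVN gave 2 (1 to 936, 1), 1 (1 to 235, 1 to 3) and 0 (0 to 622, 0), and ARC 3 (2 to 25, 2 to 5), 2 (1 to 10, 1 to 4) and 1 (0 to 14, 0 to 1). Diet gave 251 in PVN (213 to 1134, 82 to 1083) and 182 in ARC (44 to 678, 3 to 253), and genotype on HFD 1 (1 to 8, 1) and 2 (1 to 64, 2 to 4). The nuclei gave 7355 (5615 to 11320, 5719 to 8060) and the interactions with obesity, diet and genotype 0 (0 to 110, 0 to 8), 4 (3 to 234, 2 to 8) and 0 (0 to 21, 0 to 1). The depth limits Mc3r in PVN, Mc4r in ARC and Npy5r in both most.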
